A study of Bos taurus with 4 samples.

Results

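Glycogen is the glucose store of skeletal muscle, and its synthesis, its breakdown and the glycogen synthase kinases that control it were measured here through 9 genes: GYS1, GYG1, GBE1, PYGM, PHKA1, PHKG1, GSK3A, GSK3B and PPP1R3C. The members were all non-control probes whose reference accession belongs to one of these bovine genes. They came to 16 probes of 8 genes, out of 43653 non-control probes on the array, of which 23492 carried an accession with a gene symbol. No probe was matched to PHKA1, which was not analysed here.

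Total RNA was isolated from the semitendinosus, a hind limb muscle, of 15-month-old bulls. The 4 dual-colour Agilent bovine arrays each held 1 Hereford (HER) and 1 Holstein-Friesian (HF) bull, so there were 4 bulls per breed, compared individually. HER is a beef breed of high meat and high fat yield and HF is a dairy breed that served as the reference. The labels give every array the same dye orientation, and the arrays lay on 1 slide by their file headers, so that dye and breed cannot be told apart.

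A glycogen particle starts on glycogenin, which glucosylates itself. Glycogen synthase then lengthens the chains and the branching enzyme adds branch points. During contraction, phosphorylase kinase phosphorylates and so activates glycogen phosphorylase, which releases glucose units. GSK3 phosphorylates glycogen synthase and lowers its activity. Insulin acting through AKT inhibits GSK3, and protein phosphatase 1, held on glycogen by targeting subunits, removes the inhibiting phosphates. GSK3 has 2 paralogs, GSK3α and GSK3β, which also act in protein synthesis and Wnt signalling.

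All values below are log2(Cy5/Cy3) after loess unless another scale is named, and a value below 0 is a lower signal in Cy5. The breed behind this sign is not settled. The labels put HER in Cy3 and HF in Cy5 but also speak of swapped dyes, whereas the direction of *gsk3β* in the study runs with HER in Cy5. Directions are therefore given by dye.

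Of the 16 probes, 3 passed the limma test (Benjamini-Hochberg adjusted p below 0.05) and are termed called, and all 3 were lower in Cy5. They belonged to GSK3B (2 probes) and GYG1 (1 probe). Over all 32606 tested probes, 3.31% were called in either direction and 1.35% were called lower in Cy5. All 16 member probes passed the filter on dim probes, and all were well above background in both channels on every array. Counted by gene, with each gene at its brightest probe, only GSK3B of the 8 genes was called, beside 4.45% of 9298 named genes. Probes of 1 gene measure the same RNA and are not replicates. In bulk muscle, fewer cells of a type and less RNA per cell cannot be told apart.

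The median signal per array was 129 to 160.5 in Cy5 and 77 to 138 in Cy3 over a local background of 37 to 41, and no spot was saturated. Across probes, the log ratios of any pair of arrays correlated at r = 0.33 to 0.62. All 9 skeletal muscle fibre markers with a matched probe were tested, and none was called between the channels, whereas with median centring 6 were called higher in Cy5. Over all 32606 tested probes, 10724 were called with median centring, 10011 of them higher in Cy5. Of the 6 fibroblast and matrix markers, *COL1A1* and *COL3A1* were called lower in Cy5 and *DCN* and *PDGFRA* had means above 0, and the median of the list was -1.05 (median -0.36 with median centring, with 2 called in each direction).

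GSK3B, the β paralog, was lower in Cy5 on all 4 arrays at each of its 3 probes, which share the transcript NM_001101310. The primers with which the study measured this transcript by qPCR are shown because they identify the RNA on which the following values rest, and no probe sequence was used here.
GSK3B forward primer: aaataccacagcagcctcaga
GSK3B reverse primer: ctttccaatcgtgaccagtgt
Both primers have 21 bases and are written from 5′ to 3′.

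At the brightest GSK3B probe, A_73_P290431, the log2 ratio was -0.67, -0.57, -0.31 and -0.72 on arrays 1 to 4. Array 3 was nearest to 0 and no array crossed it. The mean was -0.57 ± 0.18 (SD, n = 4), that is a 1.48-fold lower signal in Cy5 with a 95% interval of the log2 ratio from -0.80 to -0.33, and the adjusted p of limma was 0.0435. At A_73_P195677 the ratios were -0.56, -0.46, -0.46 and -0.93, with a mean of -0.60 ± 0.22 (1.52-fold, adjusted p of limma 0.0472). At A_73_102981 they were -0.36, -0.30, -0.47 and -0.89, with a mean of -0.51 ± 0.27 and an adjusted p of limma of 0.0723. A_73_P195677 and A_73_102981 were dim, with median signals of 193 to 282 in Cy5 and 128 to 466.5 in Cy3. The call at A_73_P195677 was lost without the filter on dim probes (adjusted p of limma 0.0527). With plain subtraction its mean was -0.80, and it stayed called (adjusted p of limma 0.0369). The 3 probes thus ran the same way, and array 4 had the lowest ratio at each of them.

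Signals of each bull were set on a common log2 scale by quantile normalization of the mean intensities. GSK3B at A_73_P290431 reached 9.83, 9.79, 9.95 and 10.02 in the Cy5 bulls and 10.50, 10.36, 10.27 and 10.74 in the Cy3 bulls of arrays 1 to 4. The highest Cy5 bull was below the lowest Cy3 bull, and the same held at both other GSK3B probes. Before loess the order was not the same: the uncorrected median signal of this probe was 1091, 1484, 1531.5 and 1567 in Cy5 and 675, 626, 952.5 and 1891 in Cy3, so that Cy5 was brighter on 3 of 4 arrays. Loess removes the excess of Cy5 that changes with brightness, and the sign of several members depended on it.

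When each array was centred on its median in place of loess, the brightest GSK3B probe had a mean of 0.03 (adjusted p of limma 0.887) and the others -0.30 and -0.21. The median over all tested probes was then 0.24, and relative to it the 3 GSK3B probes lay at -0.20, -0.53 and -0.45. The call for GSK3B did not hold without any 1 array: the mean at A_73_P290431 was -0.54 without array 1, -0.57 without array 2, -0.65 without array 3 and -0.52 without array 4, with adjusted p of limma from 0.0889 to 0.141.

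GSK3A, the α paralog, did not move in 1 direction. Its brighter probe, A_73_106193, had ratios of -0.25, 0.17, 0.20 and -0.19, below 0 on arrays 1 and 4 and above 0 on arrays 2 and 3. The mean was -0.02 ± 0.24 (n = 4) with a 95% interval from -0.29 to 0.25 and an adjusted p of limma of 0.947. The second GSK3A probe showed the same signs on each array, with a mean of -0.05 ± 0.19 and an adjusted p of limma of 0.817. With median centring the brighter probe changed to 0.66 and was called (adjusted p of limma 0.0227), and the second was at -0.10.

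At the brightest probe of each gene, the GSK3B ratio was below that of GSK3A on every array, by 0.42, 0.74, 0.52 and 0.53 on the log2 scale. The mean difference was -0.55 ± 0.14 (n = 4). The exact two-sided permutation test by sign flips gave p = 0.125, which is the smallest p that 4 arrays allow. At these probes the difference was between -0.62 with median centring and -0.49 without array 2, and with the mean over the probes of each gene it was -0.53. After loess all 6 pairs of a GSK3B and a GSK3A probe had differences below 0, from -0.59 to -0.46. With median centring 5 of the 6 did, but the size depended on the GSK3A probe. Pairs with the brighter GSK3A probe had -0.87, -0.95 and -0.62, each below 0 on all 4 arrays. Pairs with the dimmer one had -0.11 ± 0.37, -0.20 ± 0.30 and, with the brightest GSK3B probe, 0.13 ± 0.26 (n = 4). These were below 0 on 2, 2 and 1 of the 4 arrays. This comparison does not show that GSK3A was constant.

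**Figure D1:**
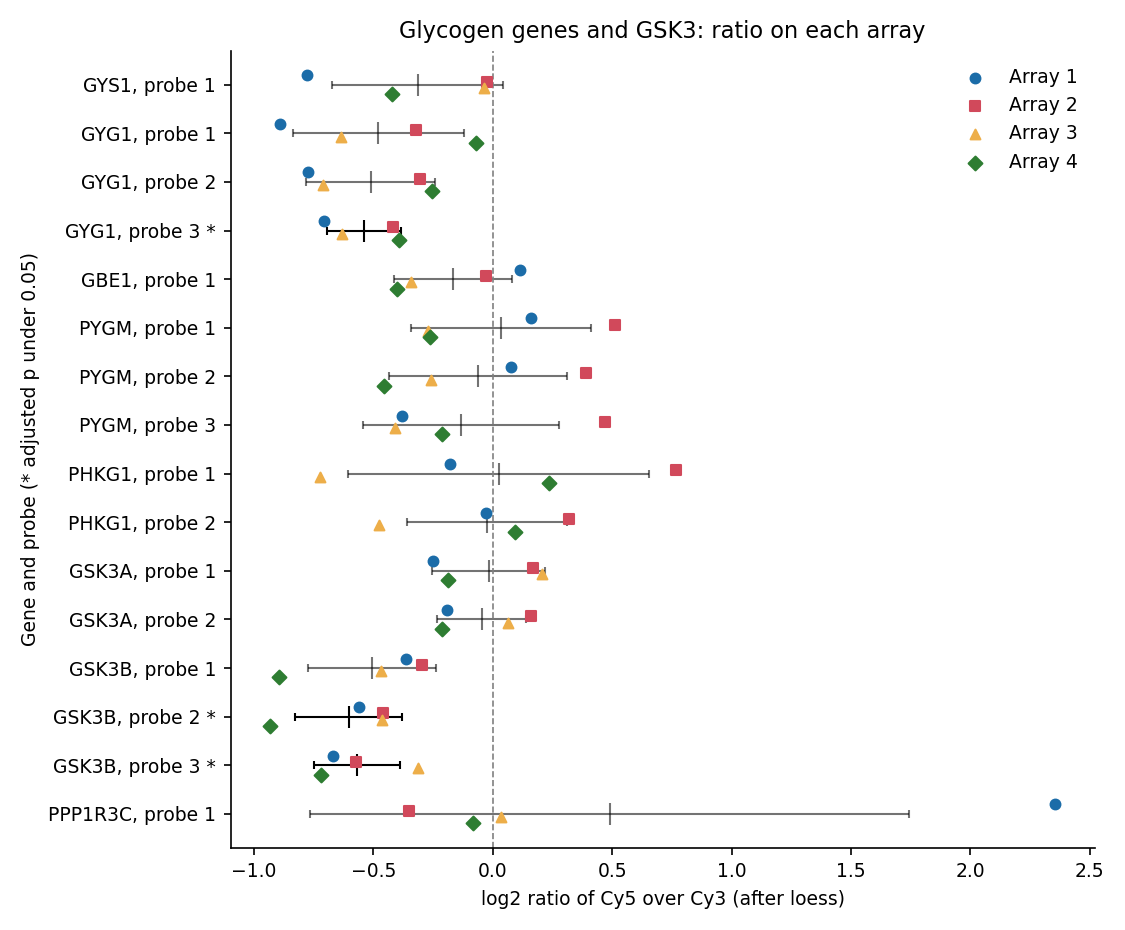
Log2 ratio of Cy5 over Cy3 after loess (x axis) for the 16 probes of 8 genes (y axis), with 1 coloured symbol per array and a black bar for the mean ± SD over 4 arrays. The 3 called probes carry an asterisk, all points of GYG1 and GSK3B lie below 0, and PPP1R3C has 1 array at 2.36. With median centring in place of loess all 3 GYG1 probes and the brightest GSK3B probe (probe 3) have means above 0.

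GYG1 encodes glycogenin, the protein on which a glycogen chain begins, and all of its 3 probes were lower in Cy5 on all 4 arrays. At A_73_P318536 the ratios were -0.71, -0.42, -0.63 and -0.39 on arrays 1 to 4. The mean was -0.54 ± 0.15 (n = 4), a 1.45-fold lower signal in Cy5 with a 95% interval from -0.76 to -0.32, and it was called at an adjusted p of limma of 0.0432, the smallest p among the members. The spread between arrays was small here, since the arrays differed by less than the mean.

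The other GYG1 probes had means of similar size and were not called. A_73_P107906 gave -0.77, -0.31, -0.71 and -0.26, with a mean of -0.51 ± 0.27 and an adjusted p of limma of 0.0711. The brightest, A_73_114996, gave -0.89, -0.32, -0.63 and -0.07, with a mean of -0.48 ± 0.36 and an adjusted p of limma of 0.117. Arrays 1 and 3 had the lowest ratios at each GYG1 probe. Averaged over its probes, GYG1 had a mean of -0.51 ± 0.26 and an adjusted p of limma of 0.0596, whereas GSK3B, averaged likewise, stayed called (-0.56 ± 0.20, adjusted p of limma 0.0419).

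At A_73_P318536 the Cy5 bulls reached log2 signals of 10.46, 10.68, 10.66 and 10.69 and the Cy3 bulls 11.17, 11.10, 11.29 and 11.08. The channels did not overlap at this probe or at the other 2 GYG1 probes. With GSK3B this makes 6 of 16 member probes with no overlap between the channels, beside 14.2% of all probes with levels. With median centring the GYG1 means turned to 0.10 at A_73_P318536, 0.11 at A_73_P107906 and 0.36 at A_73_114996, or -0.13, -0.12 and 0.13 relative to the median of all probes. Without array 1, 2, 3 or 4, the mean at A_73_P318536 was -0.48, -0.58, -0.51 and -0.59, and the adjusted p of limma was 0.0848 to 0.126.

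**Figure D2:**
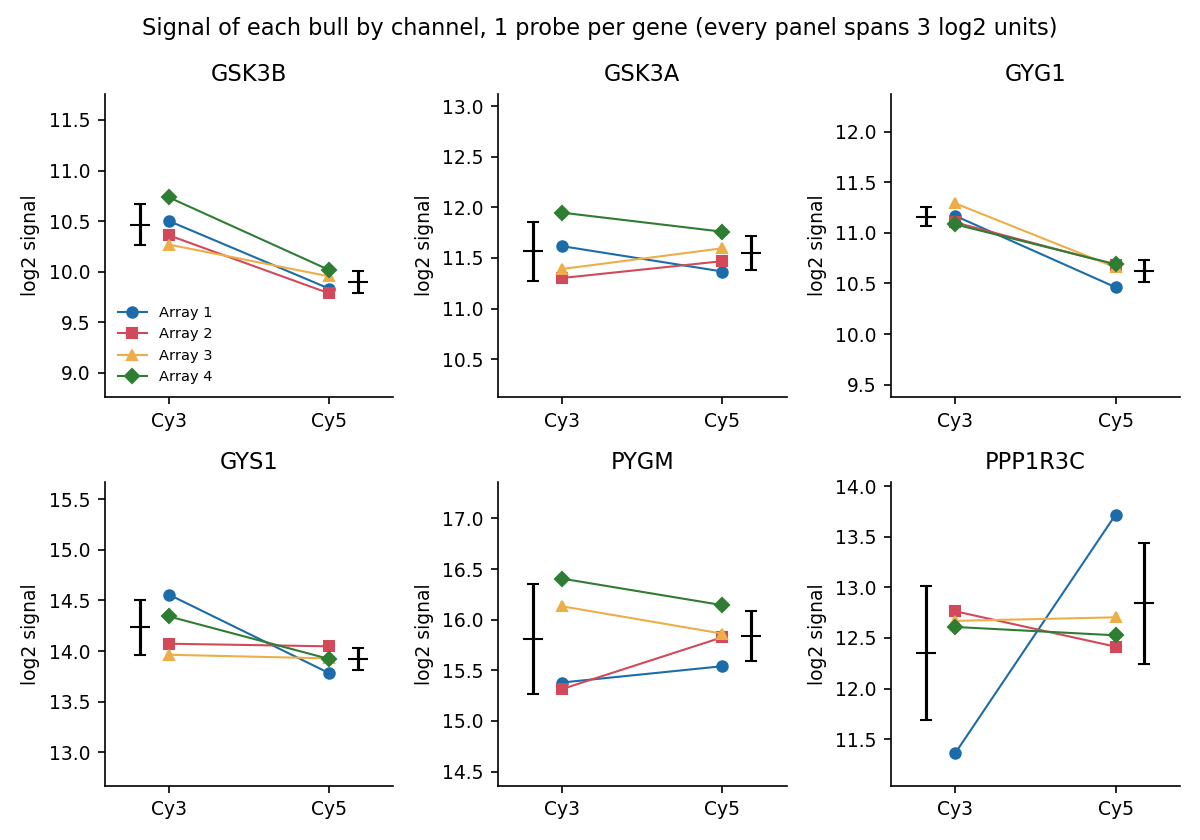
Log2 signal after normalization (y axis) of each bull in the Cy3 and Cy5 channels (x axis) for 1 probe of 6 genes, with a line joining the 2 bulls of 1 array and black marks for the mean ± SD of 4 bulls. The channels do not overlap for GSK3B and GYG1, overlap for GSK3A, GYS1 and PYGM, and array 1 stands apart for PPP1R3C. These are levels after loess, and the order of the channels at GSK3B and GYG1 rests on it.

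GYS1, the muscle form of glycogen synthase, had ratios of -0.78, -0.03, -0.04 and -0.42 at its only probe. All 4 were below 0, but arrays 2 and 3 were close to it. The mean of -0.31 ± 0.36 (n = 4) was not called, with a 95% interval from -0.67 to 0.04 and an adjusted p of limma of 0.252, and it was 0.48 with median centring. GBE1, the branching enzyme, had ratios of 0.11, -0.03, -0.34 and -0.40 and a mean of -0.17 ± 0.25 (adjusted p of limma 0.428). Its signal was dim, with a median of 187 to 264.5 in Cy5 and 94 to 229 in Cy3.

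PYGM is the muscle glycogen phosphorylase, which cleaves glucose units from glycogen. Its brightest probe, A_73_P040186, had ratios of 0.16, 0.51, -0.27 and -0.26, with arrays 1 and 2 above 0 and arrays 3 and 4 below. The mean was 0.03 ± 0.38 (n = 4), the 95% interval ran from -0.34 to 0.41, and the adjusted p of limma was 0.917. The other PYGM probes had means of -0.06 ± 0.37 and -0.13 ± 0.41. With median centring the brighter 2 of the 3 probes were called higher in Cy5, at 0.93 and 0.78 (adjusted p of limma 0.0156 and 0.0280).

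PHKG1 encodes the muscle catalytic subunit of phosphorylase kinase. The ratios at its brighter probe were -0.18, 0.77, -0.72 and 0.23, so that 2 arrays lay on each side of 0. The mean of 0.03 ± 0.63 (n = 4) had a 95% interval from -0.55 to 0.60 and an adjusted p of limma of 0.963. The second probe had a mean of -0.02 ± 0.34, with the lowest ratio on array 3 and the highest on array 2 as at the first. PYGM and PHKG1 both had their highest ratio on array 2 at all 5 probes.

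Taken by role and at the brightest probes, the mean over the synthesis enzymes GYS1, GYG1 and GBE1 was -0.52, -0.13, -0.34 and -0.30 on arrays 1 to 4. The mean over the breakdown enzymes PYGM and PHKG1 was -0.01, 0.64, -0.50 and -0.01. The synthesis mean was lower than the breakdown mean on arrays 1, 2 and 4 and higher on array 3, with a mean difference of -0.35 ± 0.39 (n = 4). These are descriptions of a few genes and were not tested.

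PPP1R3C, a subunit that targets protein phosphatase 1 to glycogen, had the largest spread of the members. The ratio was 2.36 on array 1 and -0.35, 0.03 and -0.08 on arrays 2 to 4. The mean of 0.49 ± 1.25 (n = 4) had a 95% interval from -0.62 to 1.60 and an adjusted p of limma of 0.560, and without array 1 it was -0.13. With median centring it was 1.20 (adjusted p of limma 0.0619). Both bulls of array 1 stood apart: the Cy5 bull had a log2 signal of 13.72, against 12.41 to 12.70 in the other Cy5 bulls, and the Cy3 bull had 11.36, against 12.61 to 12.76 in the other Cy3 bulls.

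The slow-fibre markers also stood apart on array 1. The mean ratio over the 8 tested markers of 9 listed, which include *MYH7*, *TNNT1* and *MYL2*, was 1.45 on array 1 and -0.77, -0.61 and -0.56 on the other arrays. The called marker of the list, *MYL3* (mean -1.50, adjusted p of limma 0.0401), was below 0 on every array, with -0.82 on array 1. Their mean log2 signal ranged from 14.70 to 15.75 in the Cy5 bulls and from 14.30 to 15.53 in the Cy3 bulls, and each of the 8 passed the filter on dim probes. With median centring array 1 also stood apart (2.53, against 0.29, 0.01 and 0.07). The adipocyte markers, 5 of 6 tested, had a mean of -1.03 on array 1 and of -0.02, -0.16 and -0.46 on arrays 2 to 4, with mean log2 signals of 6.86 to 7.54 in Cy5 and 6.88 to 8.57 in Cy3. The defining adipocyte marker *ADIPOQ* had no matched probe. The part of either list in the PPP1R3C value was not tested.

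Of the 6 fibroblast and matrix markers, 4 had means below 0, as had GYG1 and GSK3B, and *DCN* (0.42) and *PDGFRA* (0.49) had means above 0. The mean ratio over the list was -1.16, -0.09, -1.16 and -0.88 on arrays 1 to 4, with mean log2 signals of 11.38 to 12.39 in the Cy5 bulls and 12.44 to 13.27 in the Cy3 bulls. With median centring the mean ratios were -0.29, 0.90, -0.61 and -0.42. After loess the mean of these markers was closest to 0 on array 2, where the markers had opposite signs. There *DCN* and *PDGFRA* were at 1.15 and 1.12. *COL1A1*, *COL1A2*, *COL3A1* and *LUM* were at -1.25, -0.42, -0.70 and -0.42 on that array. The ratios of GSK3B at A_73_P290431 and of GYG1 at A_73_P318536 were -0.57 and -0.42 there. The part of these markers in the GYG1 and GSK3B values was not tested.

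The median over the 8 genes at their brightest probes was -0.09, with a range from -0.57 for GSK3B to 0.49 for PPP1R3C, beside a median of 0.02 over 9298 named genes. With median centring it was 0.53. The median over all tested probes was then 0.24, but that set is not limited to the brightest probe of each gene. Of the 16 probes, 7 had the same sign on all 4 arrays, namely those of GYG1, GSK3B and GYS1, beside 32.7% of all tested probes. By the study's criterion of an unadjusted p of at most 0.05 and a fold change of at least 1.3, 6 of 16 probes passed, the 3 of GYG1 and the 3 of GSK3B, all lower in Cy5, beside 14.4% of all tested probes in either direction. With median centring 6 probes passed as well, none of them lower in Cy5, and they belonged to GYS1, PYGM, GSK3A and PPP1R3C. In that setting 13500 of all 32606 tested probes passed the criterion.

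**Figure D3:**
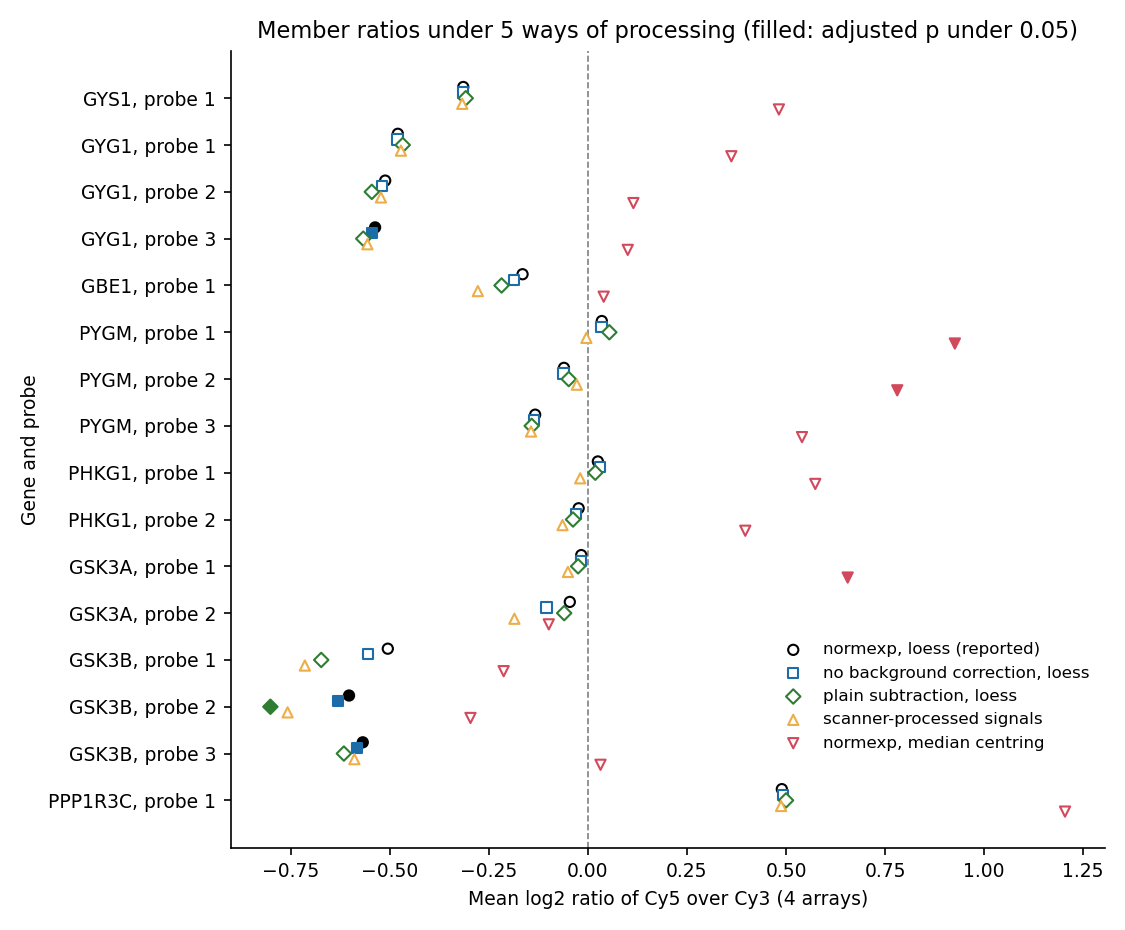
Mean log2 ratio of Cy5 over Cy3 over 4 arrays (x axis) for each member probe (y axis) under 5 ways of processing, with filled symbols at an adjusted p of limma under 0.05. The 4 settings with an intensity-dependent dye correction lie close together at most probes, but the dimmer GSK3B probes range from -0.51 to -0.71 and from -0.60 to -0.80. In the order of the legend these settings call 3, 3, 1 and 0 member probes. Median centring moves most members to the right, with PYGM at 0.93 and 0.78 and GSK3A at 0.66 called.

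Among 9290 other named genes, those whose ratios over the 4 arrays were most like the GYG1 probe A_73_P318536 were *UBE2Q2*, *SERP1* and *GRAMD2B*, with root mean square differences of 0.0391, 0.0515 and 0.0853 on the log2 scale. The *UBE2Q2* ratios were -0.65, -0.46, -0.64 and -0.36. With 4 arrays such a likeness is a description.

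Other genes of the pathway were taken from 6 lists with 68 genes. A matched probe was found for 48 of them and 45 were tested at the brightest probe. Of these, 3 were called higher and 2 lower in Cy5 and 40 were not called, beside the 4.45% of named genes given above. Their median was 0.01, beside 0.02 over all named genes. By the study's criterion 14 of the 45 passed, beside 14.4% of all tested probes. With median centring 25 of the 45 were called, beside 10724 of 32606 tested probes, 10011 of these higher in Cy5. The centred counts of each list below stand beside the same share. Both the 14.4% and the centred share are over all tested probes, a set not limited to the brightest probe of each gene. They are therefore not like for like with the partner counts, here and in each list below.

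Of the further glycogen enzymes, none of 6 was called by limma, and 1 passed the study's criterion, beside 14.4% of all tested probes. The 3 with the smallest p were *EPM2A*, the glycogen phosphatase laforin, *GAA*, the lysosomal glucosidase that degrades glycogen, and *PGM1*, the phosphoglucomutase that links glucose 1-phosphate and glucose 6-phosphate. The *EPM2A* ratios of -1.10, -1.80, -1.86 and -0.29 gave a mean of -1.26 ± 0.73 (n = 4, adjusted p of limma 0.0613). *GAA* was above 0 on all 4 arrays with a mean of 0.35 ± 0.16 (adjusted p of limma 0.0890), and *PGM1* had a mean of 0.28 ± 0.34 (adjusted p of limma 0.293). At the dimmer probes the means were -0.90 and -0.20 for *EPM2A*, -0.01 for *GAA* and 0.17 and -0.21 for *PGM1*, and none was called. *EPM2A* was called with plain subtraction, with the robust prior and in the separate-channel fit (adjusted p of limma 0.0483, 0.0467 and 0.0173). With median centring 3 of the 6 were called higher and 1 lower in Cy5, with *EPM2A* at -0.68, *GAA* at 0.91 and *PGM1* at 1.21 (adjusted p of limma 0.0421, 0.00616 and 0.00443).

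Of the phosphorylase kinase subunits and activators, none of 6 was called by limma, and 1 passed the study's criterion, beside 14.4% of all tested probes. The 3 with the smallest p were *PHKG2*, the liver and testis catalytic subunit, at 0.48 ± 0.29, *PRKAR2A*, a regulatory subunit of protein kinase A, at -0.48 ± 0.57, and *PRKACA*, a catalytic subunit of the same kinase, at 0.17 ± 0.15. Their adjusted p of limma were 0.0898, 0.239 and 0.305. *PHKG2* was above 0 on all 4 arrays, whereas the others differed in sign between arrays. At the dimmer probes the means were 0.43, 0.18 and 0.03 for *PHKG2*, -0.25 for *PRKAR2A* and 0.06 and -0.14 for *PRKACA*, and none was called. With median centring 3 of the 6 were called higher in Cy5, among them *PHKG2* at 1.03 and *PRKACA* at 0.92 (adjusted p of limma 0.00741 and 0.00674), and *PRKAR2A* turned to 0.17. *PHKG2* was also called in the separate-channel fit (adjusted p of limma 0.0315).

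Of the protein phosphatase 1 subunits, 3 of 7 tested genes were called, beside 4.45% of named genes, with 1 higher and 2 lower in Cy5. With median centring 3 were called higher and 1 lower. By the study's criterion 4 of the 7 passed, beside 14.4% of all tested probes. *PPP1R3B*, another glycogen-targeting subunit, had ratios of 1.32, 0.70, 0.98 and 1.38 and a mean of 1.09 ± 0.32 (n = 4, adjusted p of limma 0.0290). Its 2 dimmer probes had means of 0.38 and 0.23 and were not called. *PPP1R2*, an inhibitor of the phosphatase, had ratios of -1.29, -0.93, -0.56 and -0.98 and a mean of -0.94 ± 0.30 (adjusted p of limma 0.0331), which was -0.29 and not called with median centring (adjusted p of limma 0.181). *PPP1R1B*, also an inhibitor subunit, had a mean of -0.62 ± 0.22 (adjusted p of limma 0.0446), whereas its second probe gave -0.16. Unlike *PPP1R3B*, which was above 0 on all 4 arrays, the related PPP1R3C was above 0 on arrays 1 and 3 alone, and the difference between them was not tested.

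Among kinases upstream of GSK3, its scaffolds and its binding partners, 1 of 11 was called, beside 4.45% of named genes. By the study's criterion 2 of the 11 passed, beside 14.4% of all tested probes. *SGK1*, a kinase related to AKT that can phosphorylate GSK3, had ratios of 1.35, 1.10, 0.47 and 1.52 and a mean of 1.11 ± 0.46 (n = 4, adjusted p of limma 0.0419). Its other probes had means of 1.47 (adjusted p of limma 0.0353) and 0.38 (adjusted p of limma 0.169). The 10 others, among them *AKT1*, *AXIN1* and *CTNNB1*, were not called, and the list had a median of -0.02, or 0.36 with median centring, where 4 were called higher in Cy5.

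Of the genes of glucose entry and glycogen-bound AMPK, 1 of 7 was called, beside 4.45% of named genes. By the study's criterion 3 of the 7 passed, beside 14.4% of all tested probes. Means were above 0 for 6 of 7, with a median of 0.21 (0.84 with median centring, where 5 were called higher in Cy5). *SLC2A1*, the glucose transporter GLUT1, had its lowest ratio of 0.33 on array 2 and its highest of 1.44 on array 1, with a mean of 1.12 ± 0.53 (n = 4, adjusted p of limma 0.0482), but its other probes had means of 0.27 and 0.13 and were not called. Even the called *SLC2A1* probe was dim, with a mean log2 intensity of 7.31. Its size depended on the background setting, with 1.92 under plain subtraction and 2.08 with scanner-processed signals. None of the 8 other GSK3 targets was called by limma, and 3 passed the study's criterion, beside 14.4% of all tested probes. The 3 with the smallest p were *MYC* at 1.36 ± 0.81, *NFATC1* at 0.43 ± 0.30 and *JUN* at 0.68 ± 0.56, all transcription factors. At these brightest probes the ratios were above 0 on all 4 arrays, with adjusted p of limma of 0.0636, 0.115 and 0.122. At the dimmer probes the means were 1.07 for *MYC*, 0.005 for *NFATC1* and 0.16 and 0.21 for *JUN*, and none was called. With median centring 5 of the 8 were called higher in Cy5, among them *MYC* at 1.90, *NFATC1* at 0.64 and *JUN* at 1.42 (adjusted p of limma 0.00628, 0.0156 and 0.00828). *MYC* was also called with the robust prior and in the separate-channel fit (adjusted p of limma 0.0497 and 0.0299).

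The partner calls also changed when single arrays were left out. Without array 2, *SLC2A1* was called (adjusted p of limma 0.0480), and without array 1, 3 or 4 none of the partners was. Over the omissions of 1 array the means ranged from 1.00 to 1.23 for *PPP1R3B*, from -1.07 to -0.82 for *PPP1R2*, from -0.71 to -0.53 for *PPP1R1B*, from 0.97 to 1.32 for *SGK1* and from 1.01 to 1.38 for *SLC2A1*.

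**Figure D4:**
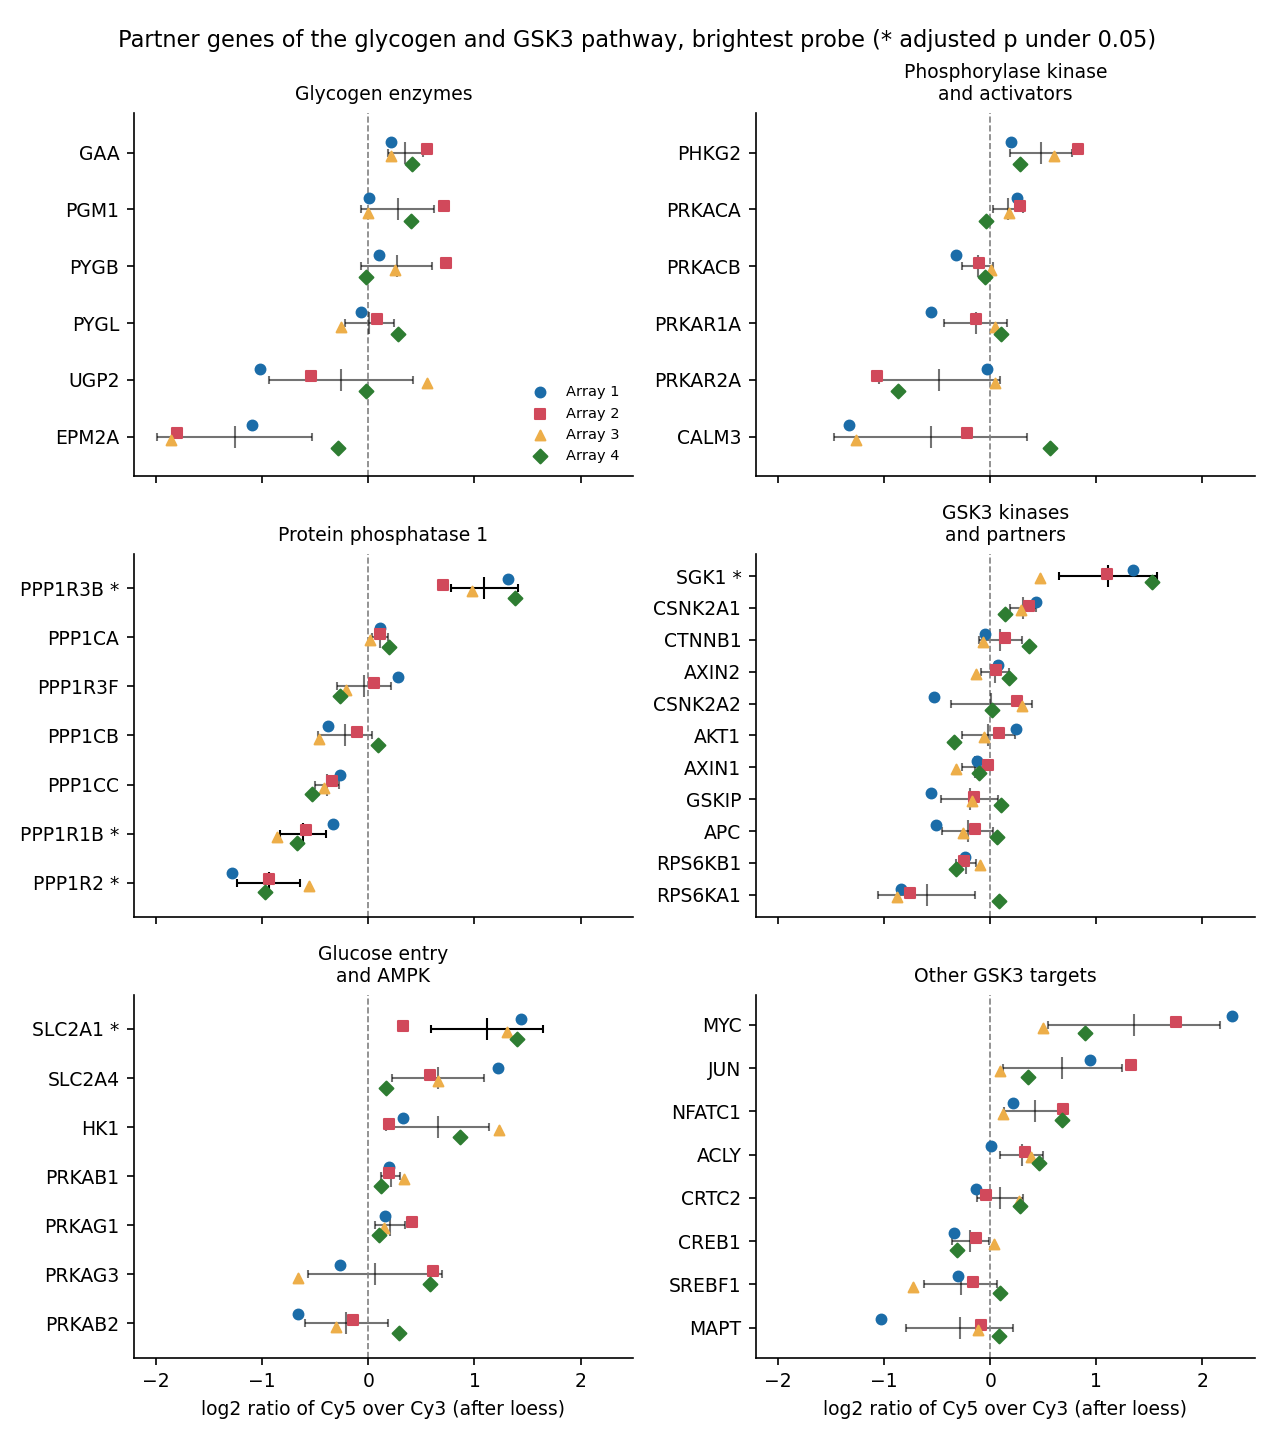
Log2 ratio of Cy5 over Cy3 after loess (x axis) for the 45 tested partner genes (y axis) in 6 lists, with 1 coloured symbol per array and a black bar for the mean ± SD over 4 arrays. The 5 called genes carry an asterisk: *PPP1R3B*, *SGK1* and *SLC2A1* lie above 0 and *PPP1R1B* and *PPP1R2* below. With median centring in place of loess these 5 kept their signs, but *PPP1R2* was at -0.29 and no longer called. In that setting 25 of the 45 genes were called, beside 10724 of 32606 tested probes.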

How the data were processed

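Semitendinosus RNA of 4 HER and 4 HF bulls was labelled and hybridised in pairs to 4 arrays. The authors deposited scanner files of Agilent's Feature Extraction software 10.7.3.1, whose intensity values are uncorrected median signals and local backgrounds and dye-normalized processed signals. The deposited log10 ratios of the series table equal those of the scanner, Cy5 over Cy3 (largest difference 0). The array annotation names the bovine build HGSC Btau_3.1, and no coordinates were used.

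From the median signals, background was corrected by normexp (offset 50), arrays were normalized by loess with control and outlier spots at weight 0, and 7 to 14 outlier spots per array were left out. Probes had to be well above background in the same channel on all 4 arrays, with values on at least 3. Log2 ratios were tested against 0 with limma 3.58.1 in R 4.3.3 (with statmod 1.5.0 and version 1.17.8 of data.table), two-sided, with Benjamini-Hochberg adjustment over 32606 probes. The procedure was tested on simulated data. The ratio within an array is the paired difference of its 2 bulls, and the number of arrays limits the precision.

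Probes were named through accessions, using symbols of RefSeq. Members and lists were chosen with earlier results of these data known, and some pathway genes are not reported here. Named were all member probes, the called genes of each partner list or otherwise the 3 with the smallest p, and the 3 genes most like the member with the smallest p. Alternatives were other background corrections, the series table, processed signals, median centring, other filters, a robust prior with an intensity trend, a fit of separate channels, the t-test of the methods, the study's criterion, means over probes, and leaving out each array.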

Additional observations from a re-analysis of the deposited data

Results flagged for a closer look

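The PPP1R3C ratio of 2.36 on array 1 lay far from the others (-0.35, 0.03 and -0.08): its gap to the nearest array was 0.858 of the whole range, above Dixon's critical value for 4 arrays. It was the only one of the 16 member probes to pass that limit, and chance alone passes it in about 5% of groups. The mean was 0.49 ± 1.25 with array 1 and -0.13 without it.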

How the results depend on the processing

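Without 1 array in turn, 0 member probes were called by limma (5 to 7 at an unadjusted p under 0.05), 5 to 115 of all probes and 0 to 1 partner genes. The members' median was then -0.22 to -0.065. Members with means near 0 changed sign: PYGM (-0.12 to 0.14 and -0.21 to 0.071), PHKG1 (-0.22 to 0.27 and -0.14 to 0.13) and GSK3A (-0.091 to 0.061 and -0.12 to 0.010). PPP1R3C, with a mean of 0.49, also changed sign, from -0.13 without array 1 to 0.77 without array 2. With plain subtraction 1 member probe (GSK3B) was called, and with the series table or the scanner-processed signals 0 by limma (6 unadjusted), where PYGM at A_73_P040186 had -0.0039 and PHKG1 at A_73_100564 had -0.020. The methods' t-test called 0 member probes, 0 of all probes and 0 partner genes after adjustment, but 5 of 16, 2887 of 32606 and 9 of 45 at the study's threshold. At that threshold limma called 6 member probes and 4707 of all probes. The separate-channel fit called 6 member probes, 3198 of all probes and 10 partner genes. The intensity trend with a robust prior called 2 member probes, both of GSK3B, and 1666 of all probes. The GYG1 probe A_73_P318536 was then not called (adjusted p of limma 0.0517). Without a filter on dim probes 2 member probes (GSK3B and GYG1), 930 of all probes and 3 partner genes were called. With the mean over probes 2 partner genes were called.

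Median centring called 3 member probes (both brighter PYGM probes and GSK3A), 10724 of all probes (10011 higher in Cy5, against 639 of 1078 with loess) and 25 partner genes, and the members' median was 0.53. Signs turned for GYS1 (0.48), GYG1 (0.36, 0.11 and 0.10), GBE1 (0.040), PYGM (0.78 and 0.54), PHKG1 at its dimmer probe (0.40), GSK3A (0.66), GSK3B at its brightest probe (0.032) and *PRKAR2A* (0.17). The difference between GSK3B and GSK3A at their brightest probes kept its sign under alternatives that were added after the data were seen (-0.62 to -0.49). With median centring 1 of 6 probe pairs turned to 0.13, and the other pairs with the dimmer GSK3A probe were at -0.11 and -0.20.

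No pairing beyond that of the main test was possible, because the ratio within an array already pairs its 2 bulls and there is only 1 group of arrays. Naming probes by a gene name column was not run, since the files used here have no such column. With 4 arrays on 1 slide and 1 labelled dye orientation, dye and breed cannot be told apart, and the dimmer GSK3A probe had a Cy3 signal of 67 to 150.5 over a background of 41 to 44.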
